A study of Mus musculus with 6 samples.

Results

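The numbered Zfp genes of the mouse encode zinc finger proteins, and 161 of them were expressed in double-positive (DP) thymocytes by the threshold used here. A gene belonged to the set if its symbol was Zfp followed by digits alone (Zfp36, an RNA-binding protein of another finger type, was left out) and its mean over the 3 wild-type (WT) arrays was at least 6.5 on the deposited log2 scale. Of 19938 genes with a probe set of their own, 316 carried such a symbol, and 155 of these lay below the threshold. The members were thus selected on measured WT values. These also enter the difference between genotypes, so counts are given beside those of the 7763 other genes that met the same threshold.

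Most of these proteins carry tandem fingers of the C2H2 type, in which a zinc ion holds a short loop that reads a few bases of DNA, and a row of fingers can read a long site. Many also have a KRAB domain, which recruits the corepressor TRIM28 (KAP1), and through it the histone methyltransferase SETDB1, heterochromatin proteins and the NuRD deacetylase complex, to silence endogenous retroviruses and imprinted regions. Others lack this domain and act as activators, as partners of chromatin complexes or on RNA. Their genes multiplied by tandem duplication and often lie side by side. HDAC3, the enzyme deleted here, is the histone deacetylase of the NCoR/SMRT corepressors.

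The arrays were hybridised with RNA of DP thymocytes, the thymic T cell precursors that carry both CD4 and CD8, from C57BL/6 mice at 3 weeks of age. The WT group and the Hdac3 knockout (KO) group had 3 arrays each, received no treatment and were of the same strain. The KO strain is named LCK:Hdac3 KO. Lck is a kinase gene whose promoter is active in the T lineage, but the sources used here do not give the deleted part of Hdac3 or the cells that lost it. RNA of 2 mice per genotype was pooled, and no label ties mice to arrays, so p-values cover only array-to-array spread, which may be partly technical.

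Hdac3 had log2 values of 9.40, 9.42 and 9.44 in WT and 8.28, 8.32 and 8.32 in KO, a 2.17-fold fall (limma, adjusted p = 3.5e-04), though the probe set may lie partly outside the deleted region. The mean log2 level of 9 of 10 DP markers was 10.92 to 11.10 in WT and 10.94 to 11.03 in KO. The mean of 12 neutrophil markers was 4.39 to 4.56 in WT and 4.57 to 6.04 in KO, with the highest value on KO array 2. Macrophage markers (8 of 8) gave 4.83 to 4.98 and 4.90 to 5.27, with KO array 2 again highest. The erythroid list had 3 of its 6 markers measured, at 4.66 to 4.96 in WT and 5.03 to 5.21 in KO, with KO array 2 highest here too, and 1 of the 3, Klf1, rose (0.44, SE 0.11, limma adjusted p = 0.047). B cell markers (5 of 6) gave 4.86 to 4.94 and 4.91 to 4.94, and thymic epithelial markers (6 of 6) 5.26 to 5.49 and 5.41 to 5.47, with 1 called gene, Epcam, which fell (-0.37, SE 0.09, limma adjusted p = 0.044). No marker of the remaining lists passed. The part of these cells in the results was not tested. Signal was compressed on the KO arrays, with interquartile ranges of 3.06 to 3.25 over all probe sets against 3.29 to 3.49 in WT. The part of this compression in the differences was not tested.

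The first question was where the Zfp genes stand in the transcriptome of WT thymocytes. Their WT means ran from 6.54 to 10.52 with a median of 7.61 and quartiles of 7.09 and 8.29. Zfp207, which encodes the spindle protein BuGZ, was the brightest, with 10.58, 10.52 and 10.47 in WT and 10.65, 10.65 and 10.66 in KO. It was followed by Zfp871 (WT mean 9.99, KO mean 10.03), Zfp706 (9.79 and 9.57), Zfp664 (9.70 and 9.51) and Zfp292 (9.64 and 10.08). Of these 5 genes Zfp292 alone passed the test between genotypes. Just inside the threshold were Zfp787 (WT mean 6.54), Zfp458 (6.55) and Zfp688 (6.56). Just outside it were Zfp961 (6.49), Zfp747 (6.49) and Zfp563 (6.47).

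The second question was whether the set differed with the Hdac3 knockout. In KO, 13 of the 161 Zfp genes were lower and 2 higher (limma, Benjamini-Hochberg adjusted p under 0.05), and 146 did not pass. Of all 23410 probe sets tested, 4.04% were lower and 1.75% higher, and of the 7763 other genes at the same WT threshold, 8.71% were lower and 1.83% higher. The Zfp shares of 8.07% and 1.24% lay close to those of the other genes at that threshold, though the second rests on 2 genes. These adjusted counts thus show nothing particular to the Zfp genes. At an unadjusted p under 0.05, 38 were lower and 4 higher, or 23.6% and 2.48%, against 29.3% and 5.85% of the other genes. Both of these Zfp shares were below those of the other genes, and the difference was not tested.

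The differences were small. Their median was -0.12 on the log2 scale with quartiles of -0.25 and -0.02, and the extremes were -0.86 and 0.56. The other genes at the threshold had a median of -0.13, and all 19938 genes one of 0.02. A negative difference was measured for 126 Zfp genes (78.3%), and for 75% of the other genes. A change of at least 1.5-fold was measured in 5 Zfp genes (3.11%, against 4.79% of the others) and one of at least 2-fold in none (0 of 161, against 1.07%). For 125 Zfp genes (77.6%) the whole 95% interval of the difference lay within 1.5-fold, as it did for 79.1% of the other genes. For most expressed Zfp genes the interval thus stayed below that size at the precision of these arrays, where the median standard error (SE) of a Zfp difference was 0.11. The intervals cover only array-to-array spread, not spread between mice or shifts from normalization, so they do not bound the effect of the knockout.

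**Figure D1:**
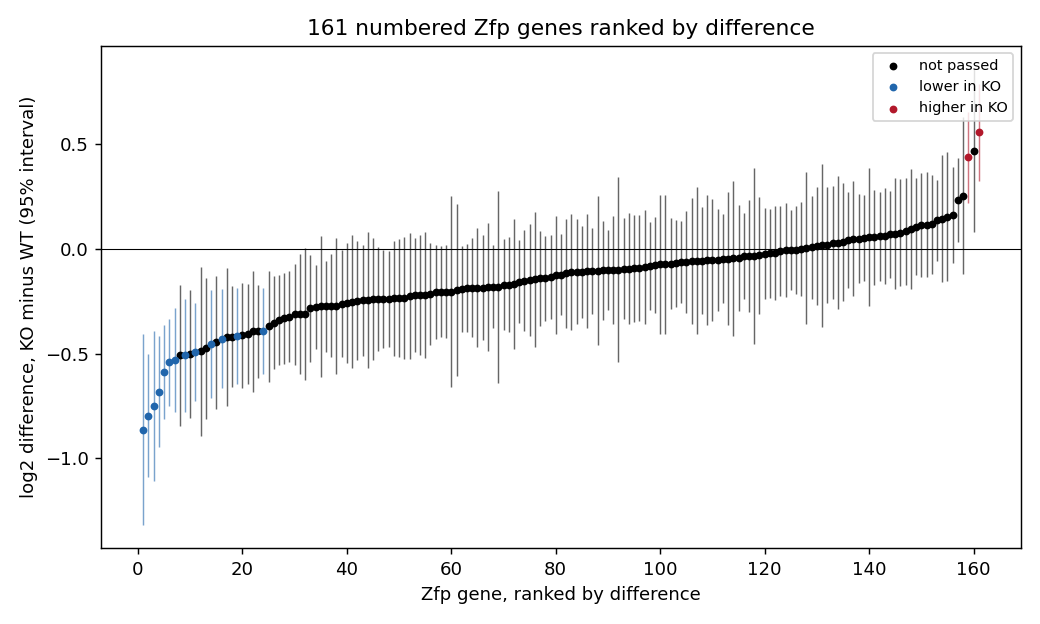
The 161 numbered Zfp genes ranked by their log2 difference (KO minus WT, vertical axis), with vertical lines for the 95% interval from limma. Points run from -0.86 to 0.56, and 13 genes lower in KO (blue) and 2 higher (red) passed an adjusted p of 0.05.

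Setting each gene against genes of like signal removed the negative median. Among genes at the WT threshold, split into 10 bins of equal size by WT mean, the median of other genes went from -0.09 in the dimmest bin to -0.18 in the fourth and -0.03 in the brightest. The Zfp medians were -0.13 and -0.24 in the lowest 2 bins, against -0.09 and -0.15 for other genes. In the seventh bin they were -0.05 against -0.15. Relative to the median of its bin, the median Zfp gene lay at 0.03 (quartiles -0.10 and 0.13), and 74 of 161 were below their bin. With 20 bins of the mean over all 6 arrays among all genes it lay at 0.01. With the 20 bins, the SD between arrays of such a relative median, pooled over both groups, was 0.05, which is larger than either value. It was 0.07 over the WT arrays and 0.013 over the KO arrays.

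**Figure D2:**
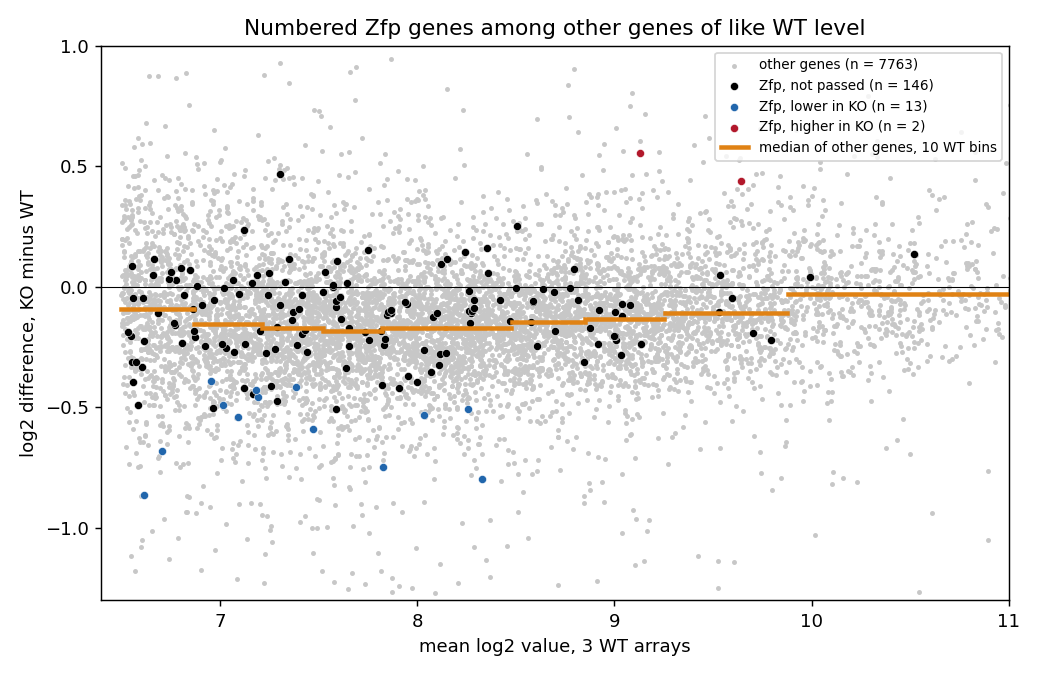
Log2 difference (KO minus WT, vertical axis) against mean log2 WT value (horizontal axis) for 161 Zfp genes (black, blue and red) and 7763 other genes at the same WT threshold (grey), with orange lines for the median of other genes in 10 WT bins. The Zfp genes scatter about the orange lines, which stay below 0, and 228 other genes lie outside the axes.

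The arrays of 1 genotype differed among themselves by as much as the genotypes. As a median over the Zfp genes, values stood 0.13 above the WT mean on WT array 1, 0.02 above it on WT array 2 and 0.13 below it on WT array 3 (-0.13). On KO arrays 1 to 3 the same median was -0.08, -0.19 and -0.12. WT array 3 was thus below KO arrays 1 and 3, and the groups overlapped. For the other genes at the threshold the medians were 0.06, 0.01 and -0.06 in WT and -0.09, -0.18 and -0.13 in KO, which do not overlap. The WT spread was wider for the Zfp genes, with a median SD per gene of 0.16 against 0.12 for other genes, while the KO medians were 0.11 and 0.09. These SDs were not matched on signal, and the Zfp genes were more often dim. The dimmest of the 10 WT bins held 26 Zfp genes and the brightest 2, against 767 and 790 other genes. WT array 3 held the lowest of the 3 WT values for 110 Zfp genes (68.3%) and for 55.5% of the other genes.

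**Figure D3:**
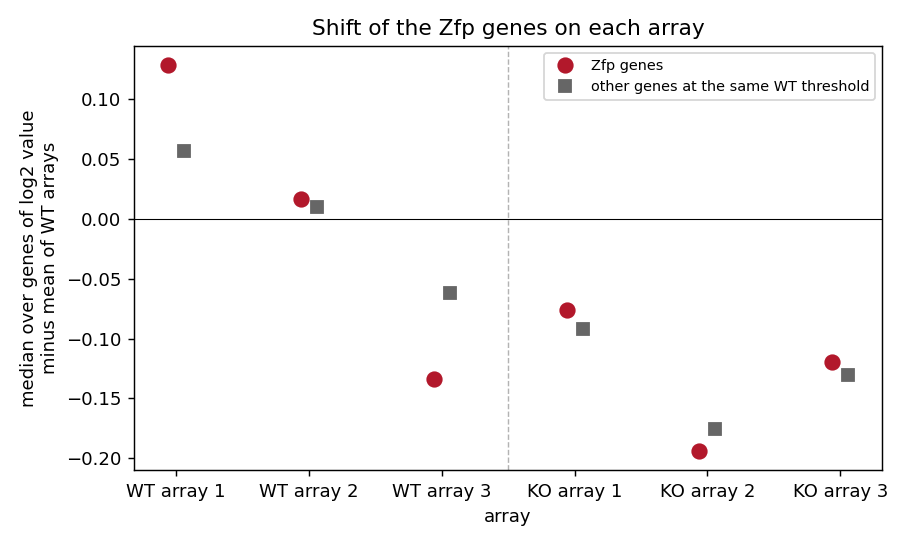
Median over genes of the log2 value minus the mean of the 3 WT arrays (vertical axis) on each of the 6 arrays, for 161 Zfp genes (red circles) and 7763 other genes at the same threshold (grey squares). The Zfp genes on WT array 3 lie at -0.13, below KO array 1 at -0.08 and KO array 3 at -0.12.

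Zfp395 and Zfp945 were the falls called in all 6 fits that left out 1 array. Zfp395 encodes a factor (also called HDBP2 or PBF) that binds a GC-rich element of the Huntington's disease gene promoter. It had log2 values of 8.53, 8.23 and 8.23 in WT and 7.75, 7.33 and 7.52 in KO. All KO arrays lay below all WT arrays, and the difference was -0.80 (SE 0.13, limma adjusted p = 0.010), or 1.74-fold, with -0.91 to -0.70 when 1 array was left out. A second, dimmer probe set of Zfp395 gave -0.35 (SE 0.11) and did not pass (limma adjusted p = 0.086). Zfp704 encodes a close relative of Zfp395. It had 7.28, 7.47 and 7.40 in WT and 6.97, 6.85 and 7.10 in KO, again with no overlap (difference -0.42, SE 0.10, limma adjusted p = 0.046).

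Zfp945 had 6.91, 6.61 and 6.61 in WT and 6.12, 5.87 and 6.09 in KO. The groups did not overlap, and the difference was -0.68 (SE 0.12, limma adjusted p = 0.013), or 1.60-fold. Zfp991 had the largest difference of the set, with 7.01, 6.36 and 6.48 in WT and 5.95, 5.33 and 5.98 in KO (-0.86, SE 0.20, limma adjusted p = 0.042). Its groups did not overlap, although WT array 1 stood well above the other WT arrays. Both genes lie near the threshold, and neither would be a member if the KO mean had to reach 6.5. That choice left 11 of 154 Zfp genes lower (7.14%) and 2 higher (1.3%). The shares of other genes under that choice are not given here, so nothing is read from these counts. Zfp868 had 8.05, 7.94 and 7.49 in WT and 7.21, 6.83 and 7.19 in KO (-0.75, SE 0.16, limma adjusted p = 0.030), with WT array 3 the lowest of its group but above all KO arrays.

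Among Zfp genes whose products work with chromatin complexes, or activate the gene of a complex member (Zfp410), 1 of 6 fell. That is too few genes to compare with the 8.71% of the other genes at the threshold. Zfp827, whose product recruits NuRD to telomeres, had 7.58, 7.51 and 7.33 in WT and 6.86, 6.96 and 6.83 in KO (difference -0.59, SE 0.10, limma adjusted p = 0.012). The remaining 5 did not pass: the CoREST partner gene Zfp217 differed by -0.18, Zfp410, an activator of the NuRD helicase gene Chd4, by -0.17, and Zfp644, of the G9a/GLP methyltransferase complex, by -0.05. The ZMYND8 partners Zfp687 and Zfp592 differed by -0.28 and -0.12. Zfp609, a cofactor of the cohesin loader NIPBL, was not in that group and fell from 8.14, 7.96 and 8.01 in WT to 7.49, 7.34 and 7.69 in KO (-0.53, SE 0.11, limma adjusted p = 0.027). These role groups were assembled with results of these data known.

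Of 3 Zfp genes with roles in lymphocytes or cytokine signalling, 1 fell, again too few to set against the 8.71% of other genes. Zfp318, whose product allows B cells to make IgD from the shared IgM and IgD transcript, had 7.06, 7.05 and 6.95 in WT and 6.64, 6.35 and 6.59 in KO (-0.49, SE 0.10, limma adjusted p = 0.029). All its KO values were below its WT values. Zfp335, which naive T cells need to accumulate, had means of 8.64 ± 0.12 (SD, n = 3) in WT and 8.63 ± 0.05 in KO, and its difference of -0.01 had a 95% interval from -0.23 to 0.21. Zfp341, a transcriptional regulator of STAT3, differed by 0.05 (95% interval -0.17 to 0.26).

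Of 3 Zfp genes picked for roles in silencing retroviral or imprinted DNA, none passed. The 3 were not a full list of such silencers and are too few to set against the 8.71% of other genes that fell. Zfp809, which represses proviruses through their primer binding site, had means of 7.76 ± 0.18 (SD, n = 3) in WT and 7.54 ± 0.16 in KO (-0.22, 95% interval -0.49 to 0.05). Zfp445, a guardian of imprints, differed by -0.08 (-0.31 to 0.15) and Zfp638, which silences unintegrated retroviral DNA with the HUSH complex, by -0.21 (-0.42 to 0.01). Of 5 Zfp genes picked for products that act on RNA or ribosomes none passed, again too few to set against that 8.71%. Zfp326, of a splicing and elongation complex, came nearest (-0.41, SE 0.11, limma adjusted p = 0.056), and Zfp622, of ribosome assembly, differed by 0.00 (95% interval -0.22 to 0.23). Zfp346, which binds double-stranded RNA, differed by -0.24, Zfp598, the ubiquitin ligase of collided ribosomes, by -0.13, and Zfp106 by -0.07. The GC-rich promoter binders Zfp148 and Zfp281 differed by 0.05 and 0.06, and neither passed.

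The other falls were smaller than 1.5-fold. Zfp629 had 7.18, 7.05 and 7.04 in WT and 6.62, 6.47 and 6.56 in KO (-0.54, SE 0.09, limma adjusted p = 0.012). Zfp219, whose product is a partner of SOX9 in cartilage, differed by -0.51 (SE 0.12, limma adjusted p = 0.043), Zfp599 by -0.46 (SE 0.11, limma adjusted p = 0.049) and Zfp639 by -0.43 (SE 0.11, limma adjusted p = 0.046). Zfp90, a KRAB protein gene, was the last, with -0.39 (SE 0.09, limma adjusted p = 0.041). For all 13 genes that fell, the highest KO value was below the lowest WT value. They were called on these same values, so this is no separate support. Over the whole set, all KO values lay below all WT values for 47 of 161 Zfp genes (29.2%). The shares were 35.2% of the other genes at the threshold and 16.5% of all probe sets tested.

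Both rises were among bright Zfp genes. Zfp62 had 9.25, 9.17 and 8.97 in WT and 9.71, 9.75 and 9.59 in KO, a difference of 0.56 (SE 0.10, limma adjusted p = 0.017), or 1.47-fold. Zfp292 had 9.78, 9.62 and 9.54 in WT and 10.05, 10.06 and 10.14 in KO (0.44, SE 0.10, limma adjusted p = 0.034). Zfp971 had a larger difference than Zfp292 and did not pass, with 7.47, 7.57 and 6.88 in WT and 7.97, 7.75 and 7.62 in KO (0.47, SE 0.17, limma adjusted p = 0.14). Its value on WT array 3 lay far below the other WT arrays. The next largest positive differences did not pass either. Zfp770 differed by 0.25, Zfp764 by 0.23 and Zfp846 by 0.16. Only 5 Zfp genes had all KO values above all WT values (3.11%, against 7.51% of the other genes and 13.5% of all probe sets).

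**Figure D4:**
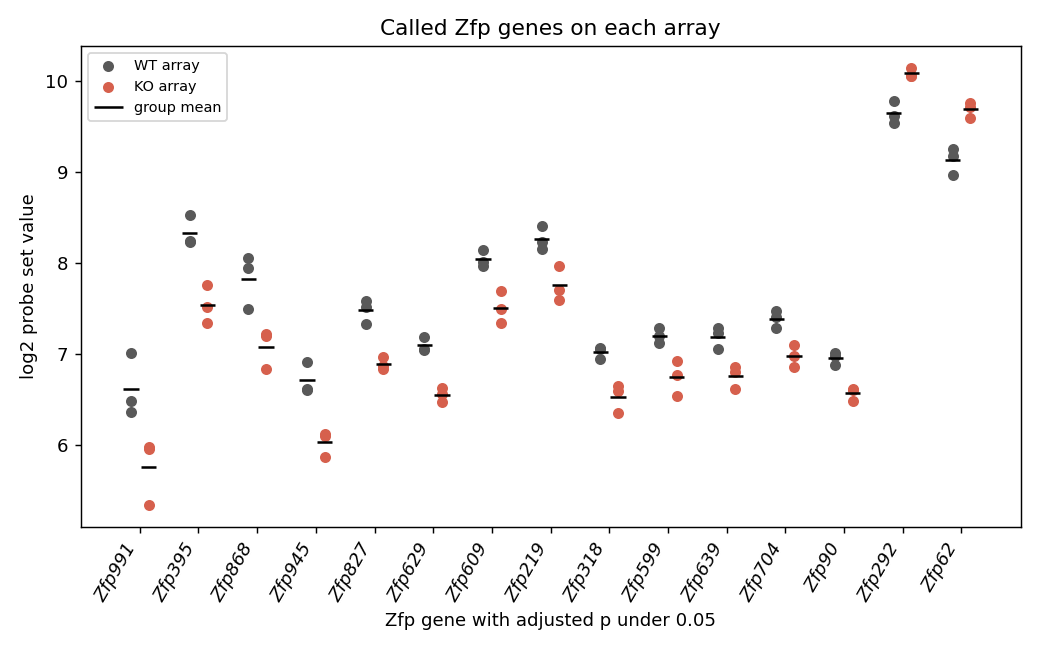
Log2 probe set values (vertical axis) on 3 WT arrays (grey) and 3 KO arrays (red) for the 15 Zfp genes with an adjusted p under 0.05, with a bar at each group mean. WT and KO points do not overlap for any of the 15, and WT array 1 of Zfp991, at 7.01, stands apart from the other WT arrays at 6.36 and 6.48.

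Besides Zfp395 and Zfp945, each of the 15 lost its call when some single array was left out. For Zfp827 this was WT array 2 or KO array 3, with differences of -0.66 to -0.53 and a limma adjusted p of at most 0.056. For Zfp629 it was KO array 2 or 3 (-0.58 to -0.49, up to 0.052). Zfp62 lost its call without WT array 2, KO array 1 or KO array 2 (0.48 to 0.62, up to 0.070). Zfp868 and Zfp318 were called only without WT array 3 or KO array 1 (-0.92 to -0.63, up to 0.10, and -0.55 to -0.40, up to 0.097), and Zfp609 only without WT array 3 or KO array 3 (-0.62 to -0.45, up to 0.097). Zfp991 and Zfp639 were called only without WT array 3 (-0.99 to -0.65, up to 0.13, and -0.50 to -0.36, up to 0.15), Zfp219 only without KO array 3 (-0.62 to -0.42, up to 0.14) and Zfp292 only without WT array 1 (0.38 to 0.51, up to 0.12). Zfp599, Zfp704 and Zfp90 were called in none of the 6 (-0.54 to -0.35, -0.48 to -0.35 and -0.43 to -0.35). All 15 kept their sign in every setting tried. With an array left out this had to be so, because their WT and KO values did not overlap.

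The count of falls followed the arrays used. Without WT array 3 it was 20 (12.4%, against 11.3% of the other genes at the threshold), of which 9 were among the 13. Leaving out WT array 1, WT array 2 or KO array 3 gave 4 each (2.48%, against 3.04%, 3.37% and 3.28%). Leaving out KO array 1 gave 6 (3.73%, against 5.23%) and leaving out KO array 2 gave 3 (1.86%, against 3.12%). The rises numbered 2 when WT array 1 was left out, 1 for WT array 3 or KO array 3, and 0 for WT array 2, KO array 1 or KO array 2. Of the other genes 0.67% to 2.04% rose in these fits. Quantile normalization left 6 falls (3.73%, against 4.41% of the other genes), all among the 13, and both rises, and it moved the median Zfp difference to -0.01. Zfp292 was not called after median centring or with the replicate block. The falls that remained after quantile normalization were Zfp395, Zfp945, Zfp868, Zfp827, Zfp629 and Zfp318. Median centring raised the falls to 26 (16.1%, against 16.7%) and moved the median Zfp difference to -0.22. The Zfp share thus moved with that of the other genes.

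**Figure D5:**
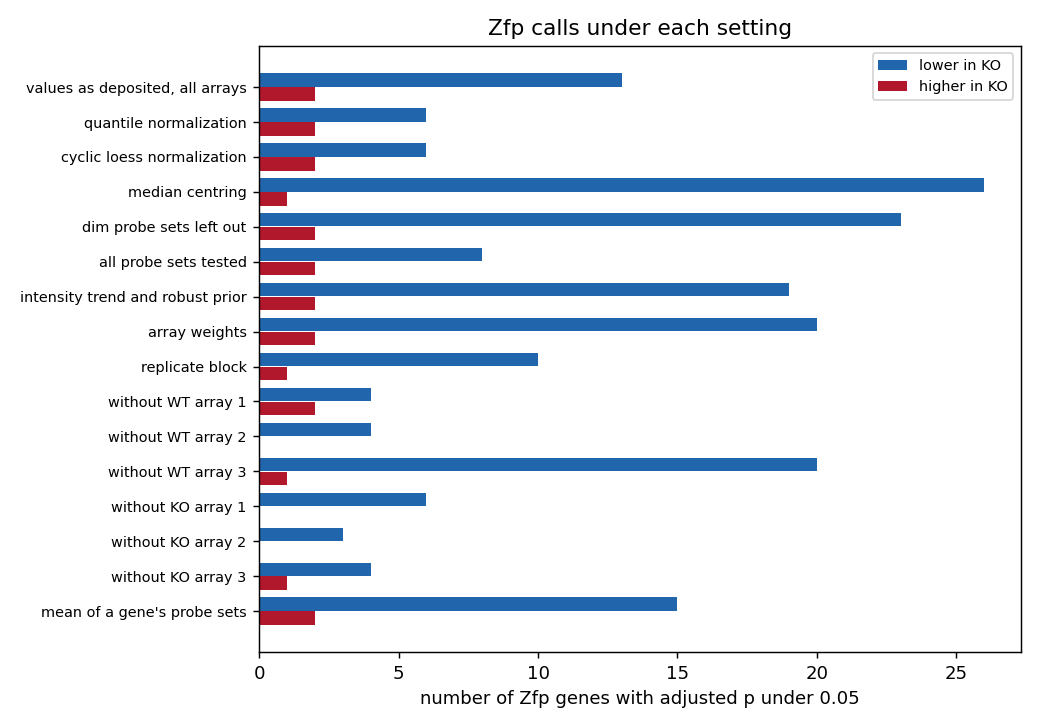
Number of Zfp genes of the 161 with an adjusted p under 0.05 (horizontal axis), lower (blue) and higher (red) in KO, for the deposited values and each other setting. The lower count runs from 3 without KO array 2 to 26 after median centring, and the higher count stays between 0 and 2.

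A gene with several probe sets gave a mixed account. Of the 161 genes, 10 had more than 1 probe set, and the brightest stood for the gene. Zfp825 did not pass by its brightest probe set, at 9.01 in WT (-0.22, SE 0.13, limma adjusted p = 0.31). Its dimmer probe set fell from 6.93 to 6.24 (-0.70, SE 0.10, limma adjusted p = 0.0050) and was called in all 6 fits without 1 array (-0.75 to -0.62). Zfp825 was singled out after its values were seen. For Zfp664 the sign differed, with -0.19 for the brightest probe set and 0.11 for the other, neither of which passed. It differed for Zfp60 as well, with 0.03 for the brightest and -0.29 for the other, which was dim (3.24 in WT), and again neither passed. The 3 probe sets of Zfp738 gave -0.24, -0.29 and -0.40, none passing. Related Zfp genes share much sequence, and cross-hybridisation between copies was not analysed here. No Zfp member had values identical to those of another probe set.

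Position was set beside the differences through the RefSeq gene order of GRCm38.p6, in which all 161 genes were matched by Entrez identifier. A run was a series of numbered Zfp genes with at most 2 other protein-coding genes between neighbours. The 68 genes that stood alone had 9 falls (13.2%), 2 rises (2.94%) and a median difference of -0.13. The 52 genes in runs of 2 to 4 had 2 falls (3.85%) and a median of -0.15, and the 41 genes in runs of 5 or more had 2 falls (4.88%) and a median of -0.10. Of the other genes at the threshold, 8.71% fell and 1.83% rose. Genes alone were brighter in WT (median 8.09) than those in short (7.43) and long runs (7.39). They also varied less between arrays, with a median SD per gene of 0.13 in WT and 0.09 in KO. These SDs were 0.16 and 0.11 in short runs and 0.17 and 0.13 in long runs. No test of the difference between these groups was made.

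The runs with the most expressed members held no called gene. The run of Zfp51, Zfp53, Zfp983, Zfp942, Zfp943 and Zfp944 had differences of -0.49 to 0.05. WT array 3 was the lowest WT array for each of these 6 genes. Zfp943 had 7.62, 7.79 and 6.87 in WT and 7.38, 7.21 and 7.16 in KO, and Zfp983 had 6.83, 6.83 and 6.11 against 6.22, 6.06 and 6.01. In both, WT array 3 lay among or below the KO values while the other WT arrays lay above them. The run of Zfp458, Zfp953, Zfp87, Zfp748 and Zfp738 had differences of -0.24 to -0.02. Zfp458 had 6.98, 6.64 and 6.03 in WT and a mean of 6.35 ± 0.14 (SD, n = 3) in KO, and the groups overlapped. The run of Zfp398, Zfp282, Zfp212, Zfp777 and Zfp746 had differences of -0.26 to -0.06. The run of Zfp84, Zfp790, Zfp74, Zfp382 and Zfp146 had differences of -0.42 to 0.01 with a median of -0.24. In it Zfp74 came nearest to a call, with 7.43, 7.23 and 7.12 in WT and 6.93, 6.70 and 6.90 in KO (-0.41, SE 0.11, limma adjusted p = 0.062), and its groups did not overlap. As medians over genes, WT array 3 lay 0.16 below the WT mean in long runs (-0.16), and at -0.15 in short runs and -0.07 among genes alone.

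Promoter sequence was compared as a feature that the choice of members had not used. The RefSeq promoter table (GRCm38.p6, 250 bases before to 50 after a start, first start listed) held 131 of the 161 genes. Their median GC content was 56.3%, below the 61.7% of 6333 other genes at the threshold and above the 52.7% of all 27025 promoters. The median number of CpG dinucleotides was 17, against 23 and 7. The letters CCGGAA, the core of an ETS site, were present on either strand in 51 promoters (38.9%, against 34.2% of the other genes and 15.2% of all). GGGCGG, a GC box, was present in 52.7% (68.4% and 35.9%). AGGTCA, a recognition element of nuclear receptors, which REV-ERB factors that recruit HDAC3 also read, was in 16 promoters (12.2%, against 11.3% and 16.0%). A match is only an occurrence of these letters.

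The 150 bases before the listed start are shown for both genes that rose and for 2 of the genes that fell, with matches to the motifs on either strand in capitals, which also included the E-box CACGTG (in 6.87% of Zfp promoters, 10.9% of the other genes and 7.24% of all). They are from chr17:22867135-22867284 (minus strand) for Zfp945, chr8:79028287-79028436 (plus) for Zfp827, chr11:49203142-49203291 (plus) for Zfp62 and chr4:34882949-34883098 (minus) for Zfp292, all in GRCm38.p6.
Zfp945: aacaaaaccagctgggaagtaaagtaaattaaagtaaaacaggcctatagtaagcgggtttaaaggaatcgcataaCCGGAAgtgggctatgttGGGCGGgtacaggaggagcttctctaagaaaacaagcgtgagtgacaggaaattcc
Zfp827: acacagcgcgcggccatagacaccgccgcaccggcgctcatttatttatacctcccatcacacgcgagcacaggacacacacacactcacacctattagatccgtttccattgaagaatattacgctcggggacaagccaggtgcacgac
Zfp62: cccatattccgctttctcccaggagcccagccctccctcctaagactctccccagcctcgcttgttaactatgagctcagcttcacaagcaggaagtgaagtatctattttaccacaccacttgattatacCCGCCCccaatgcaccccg
Zfp292: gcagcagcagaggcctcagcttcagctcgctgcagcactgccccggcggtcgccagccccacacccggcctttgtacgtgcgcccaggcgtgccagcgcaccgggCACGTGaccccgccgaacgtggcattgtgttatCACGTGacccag
Zfp945 held an ETS core and a GC box, Zfp62 a GC box in reverse and Zfp292 a pair of E-boxes, while Zfp827 held none of these 4 motifs. These stretches had 5, 13, 4 and 15 CpG dinucleotides in the order shown. Of the 7 fallen genes with a promoter in the table, 4 held GGGCGG, 1 CCGGAA, 1 AGGTCA and 0 CACGTG.

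The partners through which KRAB zinc finger proteins act were measured beside them. The list had 31 symbols, of which 26 were measured and 24 reached 6.5 in WT. Of the 26, 2 fell and 0 rose (limma adjusted p under 0.05). At an unadjusted p under 0.05, 7 were lower and 1 higher. Of the 7763 other genes at the threshold, 8.71% fell and 1.83% rose, and 29.3% and 5.85% were lower and higher at that unadjusted p. The list is too short to set against these shares. Trim28, the KRAB corepressor, had means of 10.55 ± 0.05 (SD, n = 3) in WT and 10.38 ± 0.08 in KO and did not pass (-0.17, 95% interval -0.37 to 0.04). Setdb1, its methyltransferase, differed by -0.12 (95% interval -0.32 to 0.07). The DNA methyltransferase gene Dnmt3a fell by 0.44 (SE 0.09, limma adjusted p = 0.022) and Trim24, a relative of Trim28, by 0.46 (SE 0.10, limma adjusted p = 0.032). Both were called only without WT array 3 among the fits that left out 1 array (Dnmt3a -0.48 to -0.41, Trim24 -0.52 to -0.38). Both calls were lost after quantile and after cyclic loess normalization (limma adjusted p up to 0.078 and 0.054). The list's median was -0.10, and -0.03 after quantile normalization and -0.20 after median centring.

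Other zinc finger families at the same WT threshold were set beside the Zfp genes. Their counts stand against 8.71% lower and 1.83% higher among the 7763 other genes, which include them. At an unadjusted p under 0.05 these shares were 29.3% and 5.85%. Of 27 Zbtb genes, whose products join fingers to a BTB domain, 2 fell and 0 rose (6 and 0 at an unadjusted p under 0.05), with a median of -0.14 (-0.02 after quantile normalization, -0.25 after median centring). Zbtb2 fell by 0.46 (SE 0.10, limma adjusted p = 0.031) and Zbtb5 by 0.46 (SE 0.10, limma adjusted p = 0.032). Each was called only without WT array 3 among the fits without 1 array (-0.52 to -0.40 and -0.54 to -0.42). Zbtb2 was not called after quantile or cyclic loess normalization or with the replicate block. None of 6 Zkscan or 8 Zscan genes passed by limma (3 and 2 lower, 0 and 0 higher at an unadjusted p under 0.05), with medians of -0.19 and -0.08 (-0.05 and -0.04 after quantile normalization, -0.29 and -0.18 after median centring). The genes with the smallest p were Zkscan17 (-0.32), Zkscan3 (-0.32), Zscan26 (-0.40) and Zscan29 (-0.33). Zkscan8 had the largest Zkscan difference, -0.40, with a wider spread (SE 0.16, limma adjusted p = 0.16). Zscan29 was called without WT array 3 (-0.47), and Zkscan17 differed by 0.02 when the mean of its probe sets was used. Of 9 Klf genes 1 rose and 0 fell (4 higher and 2 lower at an unadjusted p under 0.05). The rise was Klf7 (0.48, SE 0.10, limma adjusted p = 0.028; 0.41 to 0.56 without 1 array, called only without WT array 1 or 3 and not after median centring), and their median was 0.20 (0.24 after quantile normalization, 0.10 after median centring). No difference between families was tested.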

How the data were processed

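The authors' deposited table gives 1 log2 value per probe set and array; that the scale is log2 was read from the range. The sources used here do not state the background correction, the normalization or the probe summary. Labelling used an Affymetrix whole-transcript kit, per the labels' protocols. Probe sets were named through the platform annotation. Of 28853 probe sets, the 23410 with a gene were fitted with limma 3.58.1 (lmFit, eBayes) in R 4.3.3 as 2 group means, with two-sided p-values adjusted by Benjamini-Hochberg over all of them. Values are means ± SD over 3 arrays, and differences are KO minus WT. The fit was tested on simulated data. The array number, not a read depth, limits precision. Genes were named by a rule: called members up to 12 per direction, the largest rises to 6, the 5 brightest, threshold neighbours, the fullest runs (4, since 3 tied), and called genes of the other lists or the 2 with the smallest p. Genes of the role groups, Zfp90, Trim28, Setdb1, Zkscan8, the called markers and the members with several probe sets were named outside it. Motifs of NRF1, YY1 and ZNF143 were also searched and were dropped after their counts were seen, because of a limit on printing longer motifs. Alternatives were other scalings, filters, variance models, thresholds, array weights, a replicate block and leaving out each array. Protein features were not analysed here, because no protein table was used. The members, lists and alternatives were chosen with earlier results of these data known. Same-numbered arrays had correlated deviations of 0.25, -0.07 and -0.03, so the numbers were not taken as pairs.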

Additional observations from a re-analysis of the deposited data

How the results depend on the processing

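No detection calls were used, so the background level of these arrays is unknown. The count of 13 lower Zfp genes was 8.07%, against 8.71% of the other genes at the threshold. It became 6 after quantile (3.73%, against 4.41%) and 6 after cyclic loess normalization (3.73%, against 4.8%). Median centring gave 26 (16.1%, against 16.7%) and leaving out dim probe sets 23 (14.3%, against 14.6%). Testing all probe sets gave 8 (4.97%, against 6.81%) and array weights 20 (12.4%, against 13.8%). With 1 array left out it was 3 to 20 (1.86% to 12.4%, against 3.04% to 11.3%). The count of 2 higher became 1 after median centring and 1 with the replicate block (0.621% each, against 1.12% and 1.61%), and 0 to 2 with 1 array left out. The median difference of -0.12 became -0.012 after quantile and -0.017 after cyclic loess normalization, and -0.22 after median centring. With 1 array left out it was -0.20 to -0.08. For the other genes at the threshold these medians were -0.036, -0.037, -0.24 and -0.17 to -0.11, in the same order. With the replicate block 10 were lower (6.21%, against 7.1%), 9 of them among the 13. No label pairs the arrays. The median relative to genes of like signal moved by less than its spread between arrays (SD 0.05, pooled over both groups) in each of 20 settings, including bins of WT mean, which were chosen after seeing the data (0.03). That pooled spread was itself chosen after the values were seen; against the SD over the KO arrays alone (0.013), used at first, 9 of the 20 moved it by more, to between -0.016 and 0.043. WT thresholds of 6 and 7 gave 14 and 10 lower (7.18% and 7.87% of the Zfp genes that met them). The shares of other genes at those thresholds are not given here, so nothing is read from these 2 counts. The cause of these changes was not tested.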
